A study of Mus musculus with 6 samples.

Results

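Heat shock proteins and their DnaJ partners were followed in RNA from dorsal root ganglia of the mouse lumbar region, which hold the cell bodies of sensory neurons with their glia. The genes were chosen by name alone, from protein-coding symbols that belong to the Hspa, Hspb, Hspd, Hspe, Hsph, Hsp90 and Dnaja, Dnajb or Dnajc series. This gave 71 of the 36793 gene identifiers. The rule used no measured value, though earlier results of these data were known when it was chosen. They comprised 10 HSP70 genes, 3 HSP110 genes, 3 HSP90 genes, 2 mitochondrial chaperonin genes, 8 small heat shock protein genes and 45 DnaJ genes, of which 4 were DNAJA, 13 DNAJB and 28 DNAJC. Another 10 identifiers with matching names are processed pseudogenes and were left out.

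The samples were 3 ganglion libraries labelled NMDA receptor knockout (mice 4, 5 and 6) and 3 labelled wild type (mice 1, 2 and 3). By the series title, the gene for GluN1 was deleted in Schwann cells, which ensheathe peripheral axons, and GluN1 is a subunit that every NMDA receptor needs. The sources used here do not give the allele, the driver of the deletion or the strain, sex and age of the mice. Knockout libraries held 28536700, 36249163 and 33219177 expected counts, and wild-type libraries held 31827792, 32719517 and 28526704.

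Knockout libraries 5 and 6 had counts that differed little beyond sampling noise, with a mean chi-square of 1.15. They had 0 of 10258 genes differing by chi-square, against 3382 to 7317 genes in the other 14 pairs. They were counted as 1 sample, so n = 2 for knockout and n = 3 for wild type, and where 3 knockout values are given the last pair belongs to that 1 sample. The labels call the material Schwann cells, but the 8 neuron markers summed to 11620 to 13730 CPM (counts per 1000000 after TMM scaling) in knockout and 9707 to 13110 CPM in wild type. The 7 Schwann cell markers summed to 6016 to 6112 CPM in knockout and 4542 to 5247 CPM in wild type, and none of either list was at 0 throughout. In bulk RNA, a different number of cells of a type and a different level per cell cannot be told apart. Grin1, the gene named as deleted, was at 82.1, 118 and 117 CPM in knockout libraries and at 68.8, 115 and 75.0 CPM in wild-type libraries, with overlapping groups. Whole-ganglion Grin1 RNA therefore gave no check of the labels, and directions below rest on the labels.

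HSP70 proteins bind unfolded stretches of other proteins and let go of them in a cycle driven by ATP. DnaJ proteins, also called HSP40, bring clients to HSP70 and speed its ATP hydrolysis, HSP110 proteins reset it by nucleotide exchange, and HSP90 takes over many clients for late folding. Small heat shock proteins hold clients without ATP, and the transcription factor HSF1 induces many of these genes upon heat or proteotoxic stress by binding heat shock elements, inverted repeats of GAA. Sensory neurons have long axons and depend on chaperones along them, and inherited mutations of HSPB1, HSPB8 and DNAJB2 in people cause motor or sensorimotor neuropathies.

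Stretches just before a RefSeq start are shown for the members on which the results turn, from RefSeq windows on GRCm38.p6 that run from 250 bases before to 50 after each start. Some genes have several starts, and the GENCODE annotation places the Hsph1 and Hspa5 stretches wholly or partly in a first exon of another start. Windows were found for 57 of the 71 members. The most abundant members, Hspa8, Hsp90aa1 and Hsp90ab1, had none, so the motif shares and comparisons leave them out. Each stretch is written 5′ to 3′ on the strand of its gene, with capitals for a heat shock element, searched on both strands as GAANNTTC or TTCNNGAA. Hspb1 and Hspb6, the members with the smallest p-values, come first, then the inducible HSP70 pair and Hsph1.
Hspb1, chr5:135887782-135887849, plus strand: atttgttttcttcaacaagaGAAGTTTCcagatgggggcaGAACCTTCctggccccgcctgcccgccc
Hspb6, chr7:30553161-30553208, plus strand: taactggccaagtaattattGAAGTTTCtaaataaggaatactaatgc
Hspa1a, chr17:34972233-34972280, minus strand: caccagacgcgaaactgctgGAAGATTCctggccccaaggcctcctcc
Hspa1b, chr17:34959315-34959362, minus strand: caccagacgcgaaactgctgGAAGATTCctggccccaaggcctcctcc
Hsph1, chr5:149636351-149636380, minus strand: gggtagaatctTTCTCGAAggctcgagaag
The Hspb1 stretch held the motif at 2 places, and the Hspb6 stretch shared its GAAGTTTC. The Hspb6 stretch lies before the downstream of its RefSeq starts, inside the gene as annotated, and the window of its other start held no such motif. The Hspa1a and Hspa1b stretches were the same, and 247 of the 250 bases before their starts were identical.

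The genes for mitochondrial HSP60 and HSP10, Hspd1 and Hspe1, run in opposite directions from RefSeq starts that lie 216 bases apart, and 1 stretch lies before both of these starts. Another Hspd1 start lies beyond it, so the stretch is also within an annotated exon of the transcript Hspd1-202. In it the capitals mark overlapping heat shock motifs that include the longer form TTCNNGAANNTTC. For Hspa5, the capitals run over an ER stress element, searched as CCAAT, then 9 bases, then CCACG.
Hspe1 and Hspd1, chr1:55088053-55088082, plus strand: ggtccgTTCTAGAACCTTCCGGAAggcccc
Hspa5, chr2:34772020-34772048, plus strand: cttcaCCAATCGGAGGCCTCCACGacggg
The short heat shock motif was in a window of 16 of 57 members, or 28.1%, against 17.0% of all 27025 genes with a window. The longer form, searched as GAANNTTCNNGAA or TTCNNGAANNTTC and overlapping the short one, was in windows of 7.02% of members, Dnajb6, Hspd1, Hspe1 and Hsph1, against 0.662% of all. Hspd1 and Hspe1 share the 1 stretch shown above, and its motifs, short and longer, were counted for both. In Hsph1 the longer form lies after the start and is not in the stretch shown, which holds 1 short motif. The ER stress element was in windows of 5.26% of members, Dnajc3, Hsp90b1 and Hspa5, against 0.137% of all. A match is only a run of letters and does not show binding.

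The chaperone genes made up a steady part of the ganglion transcriptome. Their summed level per length was 16450, 17960 and 17880 TPM (transcripts per 1000000) in knockout libraries, and 17120, 16710 and 18770 TPM in wild-type libraries. Of all members, 21 averaged at least 100 TPM and 7 averaged under 1 TPM. The cytosolic chaperones Hspa8, Hsp90aa1 and Hsp90ab1 led by far and together held 64.8 to 66.9% of the members' TPM in each library.

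Hspa8, the constitutive HSC70 that also strips clathrin coats from vesicles, was the highest member per length at 5859 ± 0.697 TPM (SD, n = 2) in knockout and 6333 ± 441 TPM (SD, n = 3) in wild type. The knockout libraries were at 5858, 5890 and 5829 TPM. The SD is small because the mean of libraries 5 and 6 nearly equals library 4. In CPM the SD of Hspa8 was 134 in knockout and 173 in wild type. Hsp90aa1, the more inducible cytosolic HSP90, followed at 2800 ± 135 TPM in knockout and 3001 ± 532 TPM in wild type. Hsp90ab1, its constitutive counterpart, stood at 2533 ± 509 TPM in knockout and 2314 ± 398 TPM in wild type, so the order of the HSP90 pair was within the spread between samples. Below a clear gap came Dnaja1, a main DnaJ partner of HSC70, at 530 ± 14.5 TPM in knockout and 579 ± 67.3 TPM in wild type. Hspb1, the small heat shock protein HSP27 (HSP25 in mouse), was at 553 ± 72.6 TPM in knockout and 399 ± 67.4 TPM in wild type. It was below Dnaja1 in every wild-type library, while their order in knockout was within the spread. Hspb8, which works with Bag3 in selective autophagy, stood at 383 ± 32 TPM in knockout and 394 ± 38.4 TPM in wild type. Hspa1a and Hspa1b, the classical heat-inducible HSP70 genes, averaged 7.16 and 10.5 TPM over the 6 libraries, far below Hspa8.

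**Figure D1:**
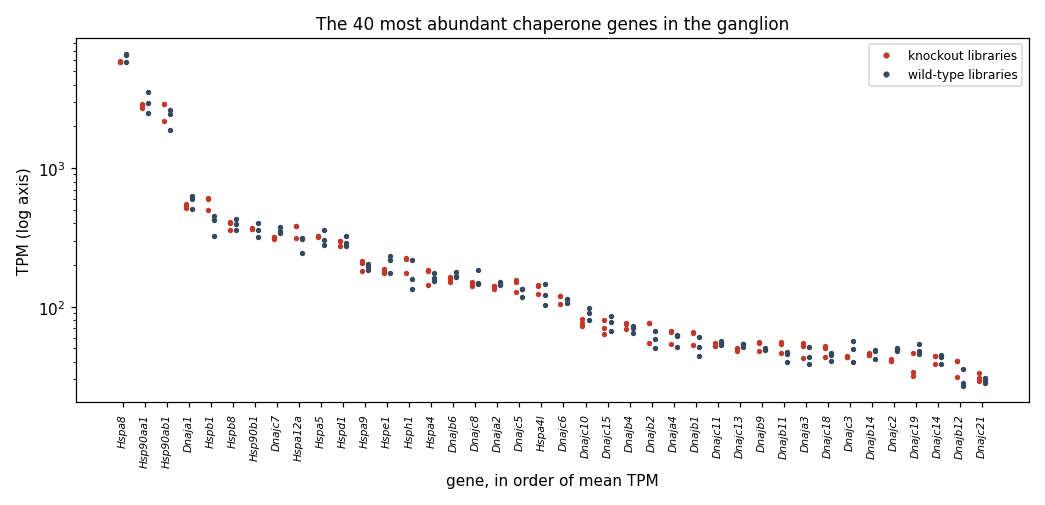
Level per length of the most abundant members, in deposited TPM on a log axis, with points for the libraries of knockout and wild type. Hspa8, Hsp90aa1 and Hsp90ab1 stood apart from the rest, and the groups lay close together for most members.

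No member passed the test between knockout and wild type. With the edgeR quasi-likelihood test and Benjamini-Hochberg adjustment over all genes, 0 of 65 tested members passed at 0.05, where 0.0952% of all genes tested did, that is 16 of 16809. That gene-wide count was 7 without knockout library 4, 8 without wild-type library 2 and 10 without wild-type library 3. With the 6 libraries counted separately, 0 members passed again, where 0.871% of all genes did. DESeq2, limma-voom with sample weights and limma-trend on TPM each called 0 members as well. At an unadjusted p under 0.05, edgeR gave 2 of 65 members, Hspb6 and Hspb1, or 3.08%, against 9.14% of all genes. Both had the higher level in knockout, a direction that 5.15% of all genes had at this p.

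The members split almost evenly, with 35 positive and 30 negative log2 fold changes of knockout over wild type and a median of 0.010, beside 0.001 over all genes tested. The fold changes ran from -0.71 to 0.82. The 95% interval lay within 0.5 log2 units of no difference for 35 of the 65 and within 1 unit for 61, so a change of more than 2-fold was outside the interval for these 61. The intervals of Hspb6, Hspa1a, Dnajb3 and Dnajc5b reached further. The other 6 members, Dnajb13, Dnajb7, Dnajb8, Dnajc5g, Hspb3 and Hspb9, had counts too low to test, and Dnajc5g had none in any library.

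The samples of the groups did not overlap for 14 of 65 members, or 21.5%, against 27.4% of all genes tested. Knockout lay above wild type for 5 members, or 7.69% against 11.8% of all genes, and below for 9, or 13.8% against 15.5%. The 5 were Hspb6, Hspb1, Dnajb5, Hspa12a and Dnajb3. The 9 were Dnajc12, Dnajc2, Dnajc5b, Hspb11, Dnajc28, Dnajc7, Dnajc13, Dnajc4 and Dnaja2. These shares were no larger than those of the genes at large.

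**Figure D2:**
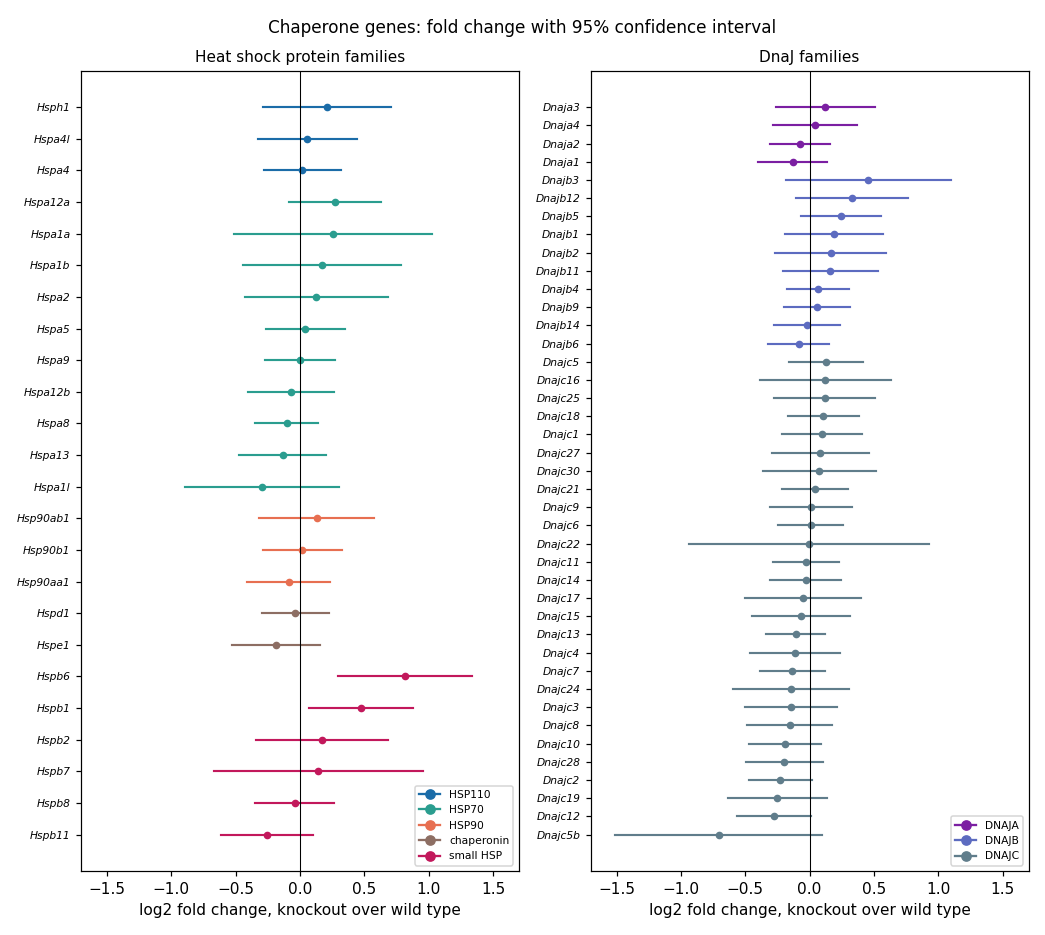
Log2 fold change of knockout over wild type for the members by family, with bars for the 95% interval from the edgeR quasi-likelihood fit. Most intervals include 0, those of Hspb6 and Hspb1 do not, and no member passed after adjustment over all genes.

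The small heat shock proteins held the members with the lowest p-values. Hspb6, or HSP20, a small heat shock protein best known from muscle (chromosome 7, 30552178 to 30555443, GRCm38), was at 11.6, 12.6 and 11.6 CPM in knockout libraries and at 5.26, 8.70 and 6.23 CPM in wild-type libraries. Every knockout library was above every wild-type library. The means were 11.8 ± 0.393 CPM (SD, n = 2) in knockout and 6.73 ± 1.77 CPM (SD, n = 3) in wild type, a 1.76-fold ratio. The log2 fold change of 0.82 had a standard error of 0.22 and an adjusted p of 0.360 by the edgeR quasi-likelihood test. Over the alternatives its log2 fold change ran from 0.69 to 1.05 and its adjusted p from 0.0737 to 0.944.

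Hspb1 (chromosome 5, 135887919 to 135889563, GRCm38) was at 199, 229 and 230 CPM in knockout libraries and at 125, 178 and 161 CPM in wild-type libraries. The groups again did not overlap, and wild-type library 2 came closest to knockout library 4. The means were 214 ± 21.2 CPM (SD, n = 2) in knockout and 155 ± 27.2 CPM (SD, n = 3) in wild type. The log2 fold change of 0.47 (standard error 0.17) had an adjusted p of 0.493 in the edgeR quasi-likelihood test. Part of the Hspb1 counts was shared out by RSEM among matching genes, and Hsp25-ps1, a pseudogene of Hspb1 on chromosome 13, had a log2 fold change of 0.36 at 1.44 to 2.75 CPM.

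The other small heat shock genes were level or scarce. Hspb8 was at 298, 323 and 322 CPM in knockout libraries and 286, 356 and 315 CPM in wild-type libraries, with full overlap. Hspb11, which despite its name encodes a part of the transport machinery of cilia, was at 7.34, 6.34 and 5.94 CPM in knockout and 8.68, 7.62 and 7.82 CPM in wild type. Its groups did not overlap, and its log2 fold change of -0.26 became -0.01 after the GC correction described further on. Hspb2 and Hspb7, muscle-expressed members, reached at most 2.88 CPM in knockout and 2.62 CPM in wild type.

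Muscle and blood RNA differed between the libraries in which Hspb6 was measured. The 9 skeletal muscle markers summed to 45.8, 5.94 and 6.35 CPM in knockout libraries and to 14.1, 4.41 and 10.4 CPM in wild-type libraries, and knockout library 4 was the highest. The 4 smooth muscle markers summed to 35.2 to 35.6 CPM in knockout and 27.3 to 43.8 CPM in wild type, and 5 erythroid markers to 15140, 4011 and 3992 CPM in knockout and 3750, 3206 and 5956 CPM in wild type. No marker of these lists was at 0 in all libraries. Without knockout library 4 the log2 fold change of Hspb6 was 0.85, against 0.82 with it. All 7 Schwann cell markers had positive log2 fold changes, with a median of 0.33. So did all 4 satellite glia markers, with a median of 0.26. After the GC correction described further on, all 7 and all 4 stayed positive, with medians of 0.13 and 0.34. The part of muscle, blood or glial RNA in the Hspb6 and Hspb1 values was not tested.

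**Figure D3:**
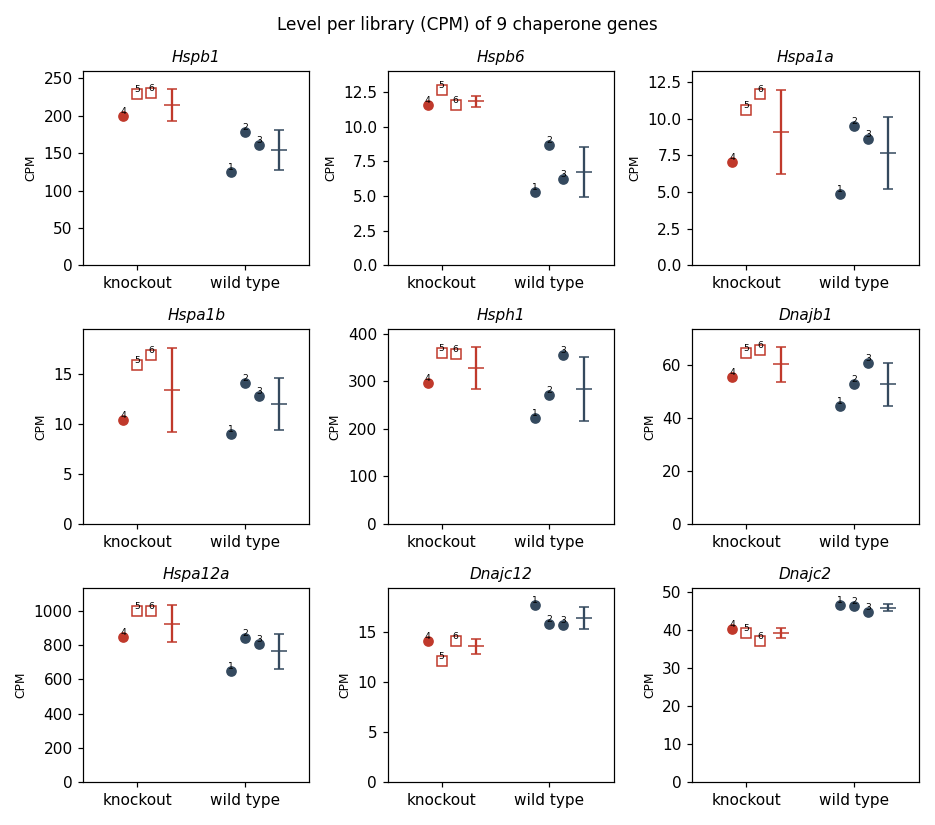
Normalised level (CPM) of selected members in each library, knockout left of wild type, with the mean and SD over samples (n = 2 and n = 3) and open squares for knockout libraries 5 and 6, which count as 1 sample. Hspb6 and Hspb1 show knockout above wild type in every library, and the inducible HSP70 genes overlap.

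The list of 13 heat-inducible members, which also held the constitutive Hspa8, gave no common direction. Hspa1a, Hspa1b, Hsph1, Dnajb1 and Hspb1 had positive log2 fold changes. Those of Hspa8, Dnaja1, Hsp90aa1, Hspd1 and Hspe1 were negative. Of the whole list 8 were positive and 5 negative, with a median of 0.07 beside 0.001 over all genes. After the GC correction 9 were positive and 4 negative, again with a median of 0.07. Hspa1a was at 7.06, 10.6 and 11.7 CPM in knockout libraries and at 4.87, 9.49 and 8.64 CPM in wild-type libraries. Its wild-type libraries differed by up to 1.95-fold, the widest of the tested members, where the median member had 1.25-fold, and its log2 fold change of 0.26 had an interval of -0.51 to 1.02. It was -0.12 when knockout libraries 5 and 6 were left out, with library 4 as the only knockout sample. Without knockout library 4 it was 0.54. Hspa1b, its near-identical neighbour, was at 10.4, 15.9 and 16.8 CPM in knockout and 9.01, 14.03 and 12.8 CPM in wild type, and the division of reads between this pair is uncertain. Its log2 fold change of 0.17 was -0.20 without knockout libraries 5 and 6, 0.45 without knockout library 4 and -0.0081 after the GC correction. Their sum was 17.5, 26.5 and 28.5 CPM in knockout libraries and 13.9, 23.5 and 21.45 CPM in wild-type libraries, again with overlap.

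Hsph1, the inducible HSP110, was at 296, 359 and 357 CPM in knockout libraries and 222, 272 and 355 CPM in wild-type libraries. Wild-type library 3 lay within the knockout range. The log2 fold change of Hsph1 was 0.21, and 0.27 after the GC correction. Dnajb1, the classical inducible HSP40, was at 55.6, 64.6 and 65.8 CPM in knockout and 44.6, 53.0 and 61.1 CPM in wild type, and its log2 fold change of 0.19 had an interval of -0.19 to 0.57. The partners Hspa8 and Dnaja1 had log2 fold changes of -0.10 and -0.13, and Hsp90aa1 had -0.09. Immediate early genes, listed as a possible sign of handling, summed to 39.8 to 51.3 CPM in knockout and 36.1 to 43.8 CPM in wild type. Of the 6, 5 had positive log2 fold changes. One of them, Arc, named after its values were seen, was at 4.63, 5.85 and 7.11 CPM in knockout libraries and 1.95, 3.46 and 2.76 CPM in wild-type libraries, without overlap. Its log2 fold change of 1.03 exceeded that of any member and had an adjusted p of 0.364 in the edgeR quasi-likelihood test. The part of handling in the values of these genes or of the inducible members was not tested.

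Among the members with a heat shock motif in their window, 8 of 14 tested had positive log2 fold changes, with a median of 0.06. Among those with a window but without the motif, 21 of 37 were positive, with a median of 0.02. The 4 members with the longer form had a median of -0.06. Motif carriers therefore centred near the other members with a window, and no test was made.

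Of the remaining HSP70 genes, Hspa12a, a distant relative of HSP70 that is abundant in brain, was at 846, 999 and 997 CPM in knockout libraries and 648, 838 and 807 CPM in wild-type libraries. Knockout library 4 stood only just above wild-type library 2. Its log2 fold change was 0.27 with an interval of -0.09 to 0.63 and an adjusted p of 0.615 in the edgeR quasi-likelihood test. Hspa8 was at 3827, 3663 and 3610 CPM in knockout and 4146, 3815 and 4063 CPM in wild type, overlapping at knockout library 4 and wild-type library 2. The HSP110 genes Hspa4 and Hspa4l had log2 fold changes of 0.02 and 0.06.

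Both cytosolic HSP90 genes overlapped between the groups. Hsp90aa1 was at 2754, 2645 and 2632 CPM in knockout libraries and 2880, 2490 and 3230 CPM in wild-type libraries. Hsp90ab1 was at 2532, 3223 and 3209 CPM in knockout and 2108, 3032 and 2730 CPM in wild type, lowest in knockout library 4 and wild-type library 1. Its log2 fold change of 0.13 was -0.05 without knockout libraries 5 and 6 and 0.30 without knockout library 4.

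The 10 chaperones of the endoplasmic reticulum had 6 positive and 4 negative log2 fold changes, with a median of 0.03. After the GC correction 6 were again positive and 4 negative, with a median of 0.14. Hspa5, known as BiP, the HSP70 of this compartment, was at 370, 363 and 365 CPM in knockout and 343, 323 and 404 CPM in wild type. Hsp90b1, its HSP90, was at 468, 453 and 455 CPM in knockout and 451, 404 and 510 CPM in wild type. Both had knockout values inside the wild-type range. The log2 fold change of Hspa5 was 0.04, and 0.14 after the GC correction. That of Hsp90b1 was 0.02, and 0.17 after it. Dnajc10, a reductase that opens disulfide bonds there, had a log2 fold change of -0.19, and -0.02 after the GC correction. Dnajb12, a membrane protein of the same compartment, was at 36.7, 44.9 and 48.2 CPM in knockout and 29.99, 39.99 and 29.4 CPM in wild type.

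The 8 mitochondrial members had 3 positive and 5 negative log2 fold changes, with a median of -0.03. After the GC correction 4 were positive and 4 negative, with a median of 0.001. Hspa9, or mortalin, the HSP70 of mitochondria, was at 251, 281 and 285 CPM in knockout and 253, 285 and 262 CPM in wild type. Its log2 fold change of 0.0015 was 0.21 after the GC correction. Hspd1 was at 306, 318 and 317 CPM in knockout and 310, 303 and 346 CPM in wild type. Hspe1, which shares the stretch shown above with Hspd1, was at 62.9, 57.7 and 56.3 CPM in knockout and 70.7, 57.8 and 75.5 CPM in wild type. The pair had log2 fold changes of -0.04 and -0.18, with intervals that include 0. Dnajc19, part of the motor that imports proteins into mitochondria, had -0.25, and -0.06 after the GC correction.

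No DnaJ gene of any class passed, and the classes were not tested against each other. The tested DNAJA genes had 2 positive and 2 negative log2 fold changes. Of 10 tested DNAJB genes, 8 were positive, with a median of 0.16. Of 27 tested DNAJC genes, 10 were positive and 17 negative, with a median of -0.05. After the GC correction described below, 9 of 10 DNAJB genes and 13 of 27 DNAJC genes were positive, with medians of 0.14 and -0.01. The median GC content was 51.5% for the tested DNAJB genes and 47.7% for the DNAJC genes.

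Dnajc12, a co-chaperone of the aromatic amino acid hydroxylases, was at 14.1, 12.1 and 14.1 CPM in knockout libraries and 17.7, 15.8 and 15.7 CPM in wild-type libraries. Its groups did not overlap, and the log2 fold change of -0.28 had an interval of -0.56 to 0.01. Dnajc2, which acts at the ribosome on emerging chains, was at 40.2, 39.2 and 37.2 CPM in knockout and 46.6, 46.2 and 44.8 CPM in wild type. The log2 fold change was -0.23, and -0.12 after the GC correction. Dnajc5b, a relative of cysteine string protein found mainly in testis, was at 0.720, 0.550 and 0.569 CPM in knockout and 1.29, 0.793 and 0.999 CPM in wild type, with an interval of -1.51 to 0.10. Adjusted p-values of these 3 genes in the edgeR quasi-likelihood test ran from 0.555 to 0.577.

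Dnajb5 was at 17.8, 20.9 and 22.5 CPM in knockout libraries and 15.9, 17.6 and 16.6 CPM in wild-type libraries. Its groups barely separated, and its log2 fold change of 0.24 was 0.09 after the GC correction. Dnajb3 was scarce, at 1.41, 1.13 and 1.04 CPM in knockout and 0.841, 0.857 and 0.999 CPM in wild type. Dnajc7, which binds both HSP70 and HSP90, was at 182, 176 and 174 CPM in knockout and 210, 192 and 186 CPM in wild type. Its log2 fold change of -0.14 was 0.0073 after the GC correction.

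The chaperones of vesicles had narrow intervals. Dnajc5, the cysteine string protein of synaptic vesicles, was at 314, 346 and 349 CPM in knockout and 275, 327 and 306 CPM in wild type. A log2 fold change of 0.13 had an interval of -0.16 to 0.42. Dnajc6, or auxilin, which recruits HSC70 to clathrin coats, was at 247, 275 and 269 CPM in knockout and 246, 269 and 260 CPM in wild type, with an interval of -0.25 to 0.26. For all 4 genes of this list the interval lay within 0.5 log2 units of 0, as it did for 35 of all 65 tested members.

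The fold changes followed the GC content of the genes. Across the 65 tested members, log2 fold change and GC content had a Pearson r of 0.55 and a Spearman rho of 0.57. Over 14448 genes with at least 1 CPM these were 0.23 and 0.31. The genes share the same libraries and are not independent replicates. Of the 33 members with GC content at or above the members' median, 22 were positive with a median of 0.12, and of the 32 below it 13 were positive with a median of -0.08.

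The libraries themselves differed along GC content. When genes were cut into 5 equal bins of GC content, the highest bin minus the lowest was -0.12, 0.27 and 0.27 log2 units in knockout libraries and -0.42, 0.21 and -0.21 in wild-type libraries. After the trend with GC and length was removed from each library, 39 members were positive and 26 negative, with a median of 0.04 and an r of 0.20. Hspb6 then had a log2 fold change of 0.79 and Hspb1 of 0.44, and 0 members passed.

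**Figure D4:**
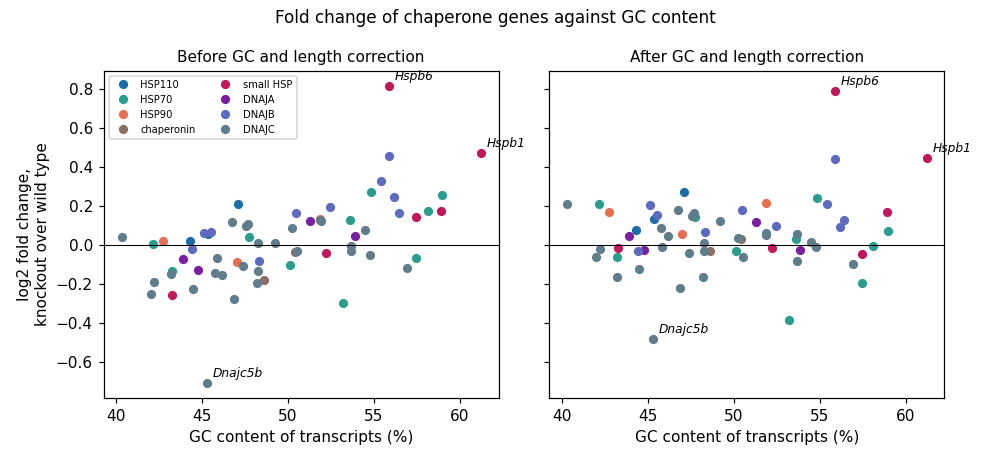
Log2 fold change of knockout over wild type for the tested members against GC content in percent, with each point 1 gene. The left panel is before the GC and length correction and the right panel after it. Before it, members of high GC content lie mostly above 0 and members of low GC content mostly below, with r = 0.55 over 65 genes. After it, r was 0.20.

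The genes that work with these chaperones were read from 6 further lists of 71 genes in all. None passed the edgeR quasi-likelihood test with Benjamini-Hochberg adjustment in the 5 samples, with 30 positive, 41 negative and a median of -0.06, and 5 had an unadjusted p under 0.05, a p that 9.14% of all genes reached. Hsf1, the heat shock regulator, had a log2 fold change of 0.16, which was -0.15 without knockout libraries 5 and 6. Bag3, the nucleotide exchange factor that pairs with Hspb8, was at 128, 263 and 268 CPM in knockout and 95.3, 204 and 134 CPM in wild type. Its interval of -0.49 to 1.39 was wide, and the log2 fold change of 0.45 was -0.17 without knockout libraries 5 and 6.

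All 15 genes of the cytosolic chaperonin and prefoldin, which fold actin and tubulin, had negative log2 fold changes with a median of -0.20. Knockout lay below wild type without overlap for 12 of them, where 15.5% of all genes did, and 0 passed. After the GC correction 12 were negative and 3 positive, with a median of -0.05. Of the 16 HSP90 co-chaperones 10 were positive with a median of 0.02, which was 0.125 after the GC correction. Of the 13 HSP70 co-chaperones 5 were positive with a median of -0.03, both before and after it. The 19 genes of the ER stress response had 12 positive values and a median of 0.08. After the GC correction 15 of them were positive, with a median of 0.05.

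Hmox1, heme oxygenase, which heat and oxidative stress also induce, was at 17.1, 16.0 and 15.0 CPM in knockout libraries and 24.3, 24.4 and 23.8 CPM in wild-type libraries. Every knockout library was below every wild-type library. Its log2 fold change of -0.57 had an adjusted p of 0.245 in the edgeR quasi-likelihood test. It passed with 6 libraries counted separately, at -0.60 and an adjusted p of 0.0401 in edgeR, and in DESeq2, at -0.56 and an adjusted p of 0.0109. The first of these counts the near-identical libraries 5 and 6 as separate samples. DESeq2 called 243 genes where edgeR called 16. Hmox1 passed in none of the other alternatives.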

How the data were processed

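RNA from 6 ganglia libraries had been sequenced with a stranded mRNA kit, per the labels. The submitters' processing notes name Trimmomatic 0.38, STAR 2.6.0a, RSEM 1.3.0 and the build GRCm38. The sources used here do not give the annotation release or the strand setting, so overlapping and antisense genes may share reads. The authors deposited expected counts, which RSEM estimates per gene without normalization. The deposited TPM values are per length and per 1000000 and served for levels between genes and as an alternative. The deposited FPKM values and the deposited gene lengths, which are other quantities than expression, entered no test.

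GENCODE vM21 (GRCm38) supplied symbols, coordinates and GC content for 35243 identifiers and did not hold 1550. Counts of 28 members were not whole within a tolerance of 1e-09, since RSEM divides reads that match several genes. Expected counts were rounded, filtered by filterByExpr and TMM-scaled. They were tested with edgeR 4.0.16 quasi-likelihood (R 4.3.3), genotype only, two-sided, with Benjamini-Hochberg adjustment over all genes at 0.05. The script was tested on simulated data. Knockout libraries 5 and 6 were summed after a chi-square check of all pairs over genes with a mean count of at least 20. Standard errors are the absolute log2 fold change over the square root of F, and intervals are 95%. P-values weigh the difference between the groups only against the spread between these samples. Depth was 28526704 to 36249163 expected counts per library, and intervals do not cover technical error shared within a library.

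The members and lists were chosen with earlier results of these data known. Genes named with values are those past the test in either fit, the 12 with the highest TPM, up to 6 per direction with the smallest p, non-overlapping ones at an absolute log2 fold change of 0.5 or more, and fixed heat-inducible and vesicle genes. Of the co-working genes, those past the test, Hsf1, Bag3 and others of smallest p were eligible. Other members named were chosen by list or after their values were seen. Alternatives used DESeq2 1.42.0, limma 3.58.1 (voom weights, and limma-trend on log2 TPM + 0.1), other scaling, no filter, a GC and length offset and leaving out samples. Protein sequences were not used here.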

Additional observations from a re-analysis of the deposited data

How the results depend on the processing

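The count of members that passed was 0 under every alternative run. The count of all genes that passed, 16, was 144 with 6 libraries counted separately, 81 without the filter, 243 in DESeq2, 27 in limma-voom with sample weights, 27 after the GC and length correction, 30 at an adjusted p of 0.10, and 7 to 14 when a sample was left out. Counts of 15, 17 and 12 came with library 6 left out, RLE scaling and limma-trend on TPM. For the named members and co-working genes, 545 comparisons with an alternative left the direction and the call as they were, 2 gained a call, both for Hmox1, and 25 turned direction. The GC correction turned Dnajc6 to -0.033, Dnajc7 to 0.0073, Hsp90aa1 to 0.055, Hspa1b to -0.0081 and Hspd1 to 0.029. Limma-voom turned Hsp90b1 to -0.057 and Hspa5 to -0.037, and TPM turned Hspa9 to -0.0017. Without knockout libraries 5 and 6, Bag3 was at -0.17, Dnajc6 at -0.065, Hsf1 at -0.15, Hsp90ab1 at -0.051, Hspa1a at -0.12, Hspa1b at -0.20 and Hspa9 at -0.089. With another library left out, log2 fold changes ran from -0.093 to 0.047 for Hspb8, -0.070 to 0.025 for Hspd1, -0.0073 to 0.076 for Dnajc6, -0.057 to 0.11 for Hsp90b1, -0.18 to 0.0058 for Hsp90aa1, -0.024 to 0.14 for Hspa5 and -0.013 to 0.088 for Hspa9. The cause of these turns was not tested. No paired analysis was possible because no mouse number occurs in both groups. With 2 knockout samples, 1 of them a sum of near-identical libraries, small changes could not be resolved.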

Other observations

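Pseudogenes of the chaperones gave low values in the same libraries. Hsp25-ps1 was at 1.89, 2.69 and 2.75 CPM in knockout libraries and 1.44, 1.90 and 2.10 CPM in wild-type libraries, with an adjusted p of 0.701 in the edgeR quasi-likelihood test. Hspd1-ps3 had a log2 fold change of -0.60 and an adjusted p of 0.550 in the same edgeR test. Serpinh1, the collagen chaperone HSP47, had a log2 fold change of 0.65 with an adjusted p of 0.453 in edgeR, and Cryab, the small heat shock protein αB-crystallin, had 0.28.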
